A study of Mus musculus with 19 samples.

Results

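Small nucleolar RNA (snoRNA) and small Cajal body RNA (scaRNA) genes were followed in bulk RNA sequencing of mouse mammary glands and mammary tumors. A gene was included when its Ensembl identifier carried the gene type snoRNA or scaRNA in GENCODE vM21 and its normalized count reached 10 in at least 3 of the 19 libraries. Of 46078 genes in the deposited table, 1558 were of these types and 209 met the rule. By their names, 42 of the 209 were box C/D snoRNAs (of 110 listed), 19 were box H/ACA snoRNAs (of 42), 19 were scaRNAs (of 53), and 129 (of 1353) carried only a predicted-gene name without a class. The genes were thus selected on their normalized counts, and the levels are given as a description. Of the listed genes left out, 1085 were at 0 in all 19 libraries. At the edge of the rule, the third highest count was 10.1 for Gm23200, 10.2 for Snora34 and 10.2 for Gm23172 just inside, and 9.99 for Gm24920, 9.75 for Snord110 and 9.75 for Gm24091 just outside.

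Female mice of 5 groups were sequenced. The paper gives a mixed FVB/C57/BALB/c background for the experimental cohorts and states none for the wild-type mice, which it describes as age-matched. MGWT (n = 3) were Wild Type mammary glands. MGN (n = 4) and MGNP (n = 4) were glands without malignant lesions, which the paper says came from tumor-bearing mice. These mice carry MMTV-neu, a transgene that expresses the neu oncogene in mammary epithelium. TN (n = 4) and TNP (n = 4) were tumors of such mice. MGNP and TNP had the genotype MMTV-neu;p53wm-R172H/+;Fsp-Cre, in which Fsp-Cre expresses Cre in fibroblasts and converts 1 wild-type p53 allele to one encoding the R172H mutant there. TN had the genotype MMTV-neu;Fsp-Cre. MGN replicate 1 was MMTV-neu;Fsp-Cre, while MGN replicates 2 to 4 were MMTV-neu;p53wm-R172H/+ without Cre. The paper calls the libraries of each group biological replicates, but the library names of TNP replicates 1 and 2 share an animal number. Whether these 2 came from separate animals is not stated, and both were kept, so the p-values measure the spread between these libraries.

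SnoRNAs are short noncoding RNAs, most of which are cut from the introns of other genes in mammals. Box C/D snoRNAs guide ribose methylation and box H/ACA snoRNAs guide pseudouridylation of ribosomal RNA, each by base pairing with the target and carrying a shared set of core proteins, and a few take part in cleavage of the ribosomal RNA precursor instead. ScaRNAs have the same boxes but reside in Cajal bodies, where they guide the same modifications in spliceosomal small nuclear RNAs. Ribosome production is high in growing cells, which is why snoRNAs have been studied in tumors.

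The 3 MGWT libraries stood apart before any comparison. They held 54677315 to 62645459 reads, against 20899152 to 27262440 in the other 16 libraries. White adipocyte markers (Adipoq, Plin1 and others) took 0.00862 to 0.0136% of MGWT reads but 1.5 to 2.19% of MGN reads, and luminal epithelial markers took 0.493 to 0.548% against 0.0696 to 0.138%. Small nuclear RNA genes, none of them members, took 0.016 to 0.0213% of MGWT reads and 0.205 to 0.341% of MGN reads. Genotype, tumors in the mouse, depth and cell composition could therefore not be told apart between MGWT and the other groups. The same holds for the yield of short RNA and any difference in strain background. In MGNP, skeletal muscle markers ranged from 0.0635 to 9.3% of reads, against 0.00843 to 0.0815% in MGN. In such bulk samples, fewer cells of a type and less RNA per cell cannot be told apart.

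The sequences of members on which the results turn show how the classes differ in length and boxes. All were taken from the GENCODE vM21 transcript sequence of the gene and are written 5′ to 3′ in DNA letters. The longer box C/D members come first, and capitals mark box C (TGATGA) within the first 25 bases and box D (CTGA) within the last 25 bases, where these letters occur. Snord22 lies at chr19:8725866-8725991, plus strand, Snord15a at chr7:99482785-99482932, minus strand, Gm22486 at chr6:71882557-71882693, minus strand, and Gm25835, which has no class name, at chr11:69668852-69668995, minus strand. Snord118, at chr11:69073427-69073561, plus strand, had no annotated host gene.
Snord22: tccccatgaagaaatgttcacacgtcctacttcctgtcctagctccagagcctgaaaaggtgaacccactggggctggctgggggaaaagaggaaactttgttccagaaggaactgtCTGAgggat
Snord15a: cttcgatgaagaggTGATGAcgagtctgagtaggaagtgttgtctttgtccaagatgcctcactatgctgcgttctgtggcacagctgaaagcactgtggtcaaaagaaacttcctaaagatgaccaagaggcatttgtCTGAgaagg
Gm22486: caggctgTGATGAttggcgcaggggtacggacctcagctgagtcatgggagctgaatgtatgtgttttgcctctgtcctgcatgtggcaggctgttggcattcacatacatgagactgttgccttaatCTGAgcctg
Gm25835: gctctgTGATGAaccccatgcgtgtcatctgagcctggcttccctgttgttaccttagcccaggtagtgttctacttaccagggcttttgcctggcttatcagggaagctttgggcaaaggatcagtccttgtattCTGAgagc
Snord118: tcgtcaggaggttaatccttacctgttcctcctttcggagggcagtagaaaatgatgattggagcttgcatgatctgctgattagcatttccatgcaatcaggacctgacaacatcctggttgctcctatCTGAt

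The shorter C/D sequences are shown because their counts differed between glands in the opposite direction. Snord70 lies at chr1:59691934-59692020, plus strand, Snord92 at chr17:71631281-71631365, plus strand, and Gm26287, without a class name, at chr1:59704258-59704338, plus strand.
Snord70: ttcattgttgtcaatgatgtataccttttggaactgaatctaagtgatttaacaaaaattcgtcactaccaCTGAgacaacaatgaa
Snord92: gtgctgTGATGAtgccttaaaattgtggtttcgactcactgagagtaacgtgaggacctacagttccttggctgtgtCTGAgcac
Gm26287: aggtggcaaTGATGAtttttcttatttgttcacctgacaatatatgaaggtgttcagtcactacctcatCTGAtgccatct

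For the box H/ACA group the capitals mark the ACA that lies 3 bases before the end. Snora73b lies at chr4:132352322-132352526, minus strand, Snora78 at chr17:24719676-24719803, minus strand, Snora41 at chr1:63179004-63179135, plus strand, and Gm22422 and Gm25989, which have no class name but end in the same way, at chr16:56035753-56035887, minus strand, and chr16:43886682-43886814, minus strand.
Snora73b: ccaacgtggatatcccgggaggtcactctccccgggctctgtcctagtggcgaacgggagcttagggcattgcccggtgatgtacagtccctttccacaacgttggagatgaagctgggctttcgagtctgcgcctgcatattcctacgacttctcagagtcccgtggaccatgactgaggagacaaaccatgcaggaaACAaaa
Snora78: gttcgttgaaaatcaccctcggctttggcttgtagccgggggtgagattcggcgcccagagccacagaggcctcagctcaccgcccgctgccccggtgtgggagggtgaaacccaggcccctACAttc
Snora41: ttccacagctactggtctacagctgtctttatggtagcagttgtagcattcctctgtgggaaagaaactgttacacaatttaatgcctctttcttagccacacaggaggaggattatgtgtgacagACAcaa
Gm22422: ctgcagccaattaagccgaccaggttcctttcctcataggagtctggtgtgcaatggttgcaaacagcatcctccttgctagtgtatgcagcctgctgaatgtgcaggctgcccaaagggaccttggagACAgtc
Gm25989: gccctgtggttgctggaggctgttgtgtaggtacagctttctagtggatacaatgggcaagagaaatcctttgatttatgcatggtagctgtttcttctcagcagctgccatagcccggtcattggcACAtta

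The named box C/D members had CTGA near the end in 41 of 42 cases and TGATGA near the start in 26 of 42 (61.9%). The ACA tail was present in 16 of 19 named box H/ACA members (84.2%) and in 7 of 19 scaRNAs (36.8%). Among the 129 members without a class name, 66 (51.2%) had the ACA tail and 23 (17.8%) had both C/D letters, while the 1349 listed genes that were no members had them in 15.7% and 19.6%. Both motifs were searched on the annotated strand only. Annotated lengths ran from 64 to 414 bases with a median of 130. Of the box C/D members, 33 of 42 were under 100 bases, whereas no box H/ACA member was. A near-identical copy elsewhere in the annotation (at least 95% identity over 90% of the length) existed for 35 of the 209, among them Snora73b, Snora41, Snord118 and Gm25989, and the counting of such reads is uncertain. The sources used here do not say whether reads were counted by strand, which bears on the 13 members that lie inside a gene on the other strand.

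The classes differed in how much of a library they took. In MGWT, box C/D members took between 0.00798 and 0.00951% of reads, with a median of 0.00915%. The medians were 0.275% in MGN (0.141 to 0.382%), 0.252% in MGNP (0.107 to 0.53%), 0.456% in TN (0.266 to 0.517%) and 0.422% in TNP (0.356 to 0.847%). Every MGWT library was below every library of the other groups. Box H/ACA members had a median share of 0.00508% in MGWT, 0.0982% in MGN, 0.102% in MGNP, 0.1% in TN and 0.181% in TNP, and the 4 last groups overlapped. The scaRNAs had medians of 0.0204, 0.0536, 0.0554, 0.086 and 0.11% in the same order, so the gap between MGWT and MGN was narrower in this class than in the snoRNA classes. These shares rested on few members. Snord22 alone held 42.2% of the box C/D reads in MGN and 53% in TN, and Snora73b held 72.2% of the box H/ACA reads in MGN and 55% in TN. In MGWT the leading box C/D member was Snord17, with 34.3% of the class. Among scaRNAs, Scarna2 led in MGWT with 53.6% of the class and Gm22009 in MGN with 31.8%. The counts of Scarna2 overlapped between MGWT and MGN.

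**Figure D1:**
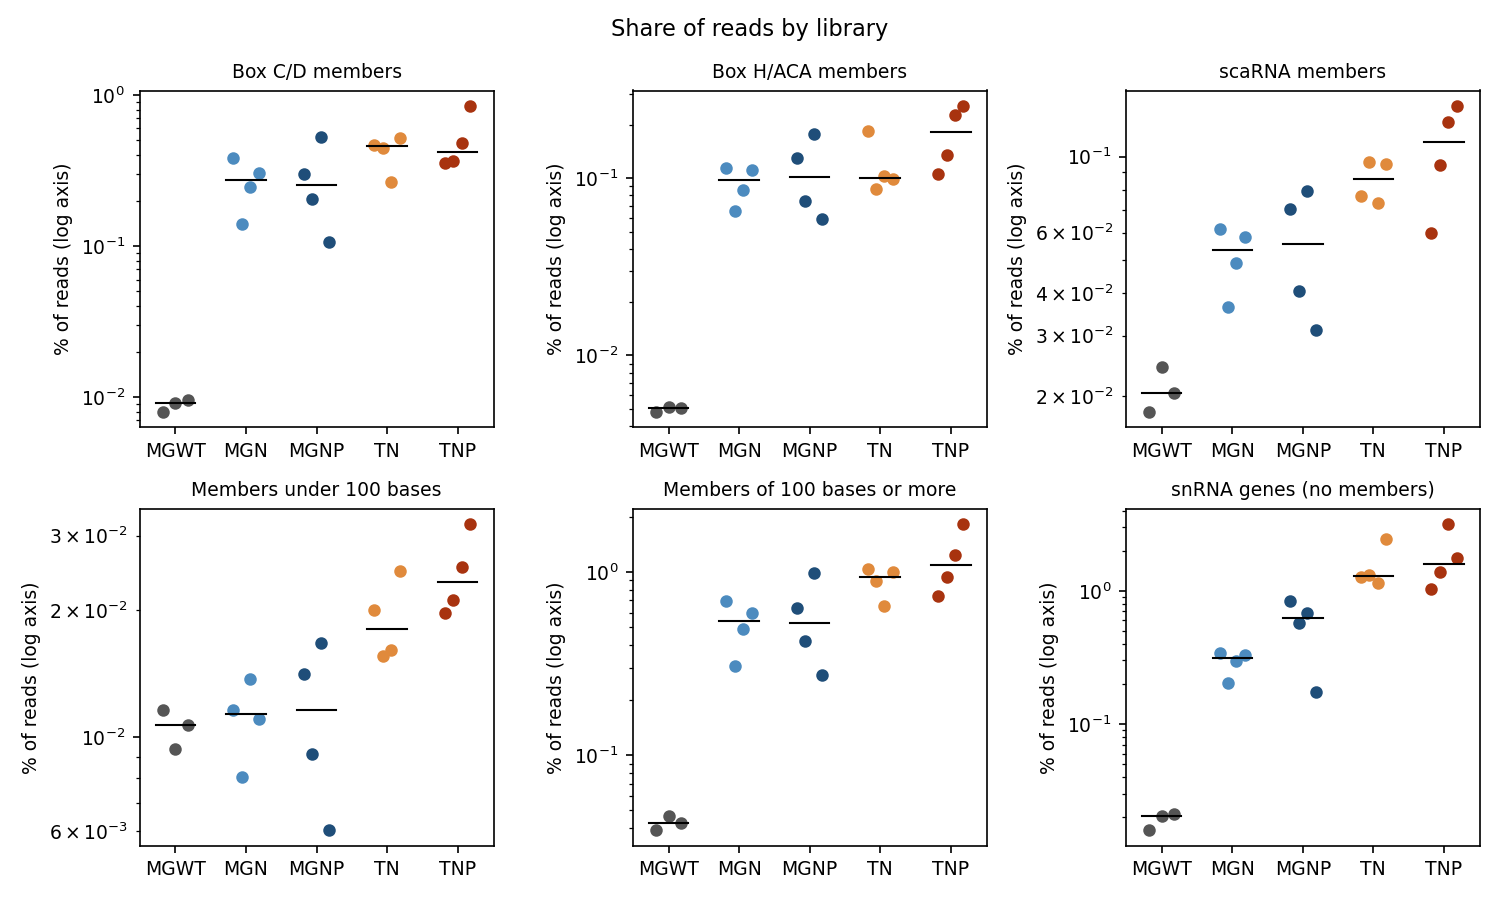
Share of all reads (percent, log axes) taken by the box C/D, box H/ACA and scaRNA members, by members under 100 bases, by members of 100 bases or more and by small nuclear RNA genes, in MGWT, MGN, MGNP, TN and TNP. Each point is 1 library and each line the group median, and the MGWT points lie below all others in every panel except that for members under 100 bases, where they lie among those of MGN and MGNP.

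Glands of MMTV-neu mice were first compared with Wild Type glands. In MGN against MGWT, 77 members (40.3% of those tested) were higher and 49 (25.7%) were lower at an adjusted p under 0.05 and at least 2-fold, where 19.1% and 17.9% of all 19017 genes tested were called in these directions. In MGNP against MGWT, which shares the MGWT libraries, 77 of 189 were higher and 45 lower, against 16.4% and 16.2% of all genes. A member could enter these tests through high counts in 1 group alone. Of the 110 members that reached the count minimum in both MGN and MGWT, 50 were higher and 23 lower. The groups did not overlap for 141 members (73.8%) in the first comparison and 135 (71.4%) in the second, against 61.3% and 54.4% of all genes tested. At a mean of at least 50 normalized counts the lower calls went from 49 to 7 and from 45 to 5.

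Among box C/D members, 14 of 39 were higher and 14 lower in MGN, including members that entered through MGN or MGWT alone. Of the 24 that reached the count minimum in both groups, 10 were higher and 7 lower. The long members were the higher ones. Snord22, the U22 RNA that takes part in processing of small-subunit ribosomal RNA, had normalized counts of 265, 264 and 341 in MGWT, 42833, 12407, 27590.3 and 32026 in MGN and 34465, 32540.3, 64769.7 and 11020 in MGNP. No library of MGN or MGNP came near the range of MGWT. The log2 difference was 6.50 ± 0.37 (SE, limma adjusted p = 6.12e-06) in MGN and 6.70 ± 0.53 (SE, limma adjusted p = 1.86e-04) in MGNP. Snord15a, which lies within Rps3, had 47.8, 68.3 and 64.1 in MGWT, 7415, 2851, 5531 and 4088 in MGN and 5987, 6215, 7834 and 3643 in MGNP, again without overlap. Its log2 differences were 6.28 ± 0.31 (SE, limma adjusted p = 2.98e-06) and 6.56 ± 0.27 (SE, limma adjusted p = 1.98e-05). Gm22486, which overlaps an exon of Ptcd3, had 63.1, 44.9 and 72.9 in MGWT and 7013, 2908, 3983 and 4232 in MGN, a log2 difference of 6.16 ± 0.29 (SE, limma adjusted p = 2.76e-06). Snord17, within an intron of Snx5, had 557, 1013 and 949, 40984, 16795, 20399 and 29906 and 22912, 22155, 37386 and 15680.3 in MGWT, MGN and MGNP, with log2 differences of 4.97 (adjusted p = 1.26e-05) and 4.84 (adjusted p = 1.17e-04).

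The box C/D members Snord118, Snord13 and Snord16a also rose, the first 2 without an annotated host. Snord118, the U8 RNA needed for large-subunit ribosomal RNA processing, had 33.7, 35.6 and 68.2 in MGWT and 678, 369, 729 and 564 in MGN. All 4 MGN libraries lay above MGWT, with a log2 difference of 3.67 ± 0.32 (SE, limma adjusted p = 4.81e-05). Snord13, the U13 RNA that acts on small-subunit ribosomal RNA, had 26.4, 33.7 and 49.6 in MGWT and 589.7, 229, 621 and 322 in MGN, a log2 difference of 3.48 ± 0.39 (SE, limma adjusted p = 1.70e-04). Snord16a, which overlaps an exon of Rpl4, had 28.1, 12.2 and 15.5 and 755, 255, 689 and 657, with 4.88 on the log2 scale (adjusted p = 5.08e-05). At 99 bases it lies at the upper end of the short members, and it rose as the long ones did.

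The box C/D members that fell in MGN were short. Of the 14, 7 reached the count minimum in both groups, among them Snord71, within Ap1g1, which had 67.8, 65.4 and 67.2 in MGWT and 14.01, 24.1, 31.9 and 20.6 in MGN. Its groups did not overlap, and the log2 difference was -1.57 ± 0.31 (SE, limma adjusted p = 0.0027). The largest fitted fall among the 14 was that of Snord70. This member, within an intron of Nop58, had 62.7, 60.04 and 67.7 in MGWT, 5.09, 5.75, 11.3 and 3.09 in MGN and 3.82, 0, 5.42 and 5.17 in MGNP. The highest MGN library was far below the lowest MGWT library. It entered the tests through MGWT alone, as Snord72 and Snord92 did, and the log2 difference was -3.26 ± 0.39 (SE, limma adjusted p = 2.38e-04) in MGN and -4.12 ± 0.67 (SE, limma adjusted p = 0.00277) in MGNP. Snord72, within Rpl37, had 46.1, 31.2 and 49.6 in MGWT and 4.77, 1.43, 4.33 and 6.46 in MGNP, with a log2 difference of -3.13 ± 0.45 (SE, limma adjusted p = 0.00171). Snord92, within Wdr43, had 49.9, 49.8 and 45.5 in MGWT and 8.92, 13.8, 7.51 and 13.4 in MGN, a log2 difference of -2.09 ± 0.30 (SE, limma adjusted p = 6.02e-04). With the skeletal muscle marker score as a covariate, the members called lower in MGNP against MGWT went from 45 to 2, and the differences of Snord70 (-2.03, adjusted p = 0.356) and Snord72 (-2.52, adjusted p = 0.158) were no longer called. That score, the mean log2 count of the markers, was 3.643 to 3.858 in MGWT and 8.795 to 16.56 in MGNP. The ranges do not overlap, so the covariate and the group cannot be told apart.

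Box H/ACA members moved in 1 direction. Of 18 tested, 14 were higher and 0 lower in MGN, and the counts were the same in MGNP. Snora73b, the U17 RNA that functions in cleavage of the ribosomal RNA precursor and lies in an intron of Rcc1, had 328, 453 and 461 in MGWT, 22569.9, 12391, 14954 and 19152 in MGN and 22346, 16574, 28016 and 13289 in MGNP. No MGN or MGNP library overlapped MGWT, and the log2 difference was 5.36 ± 0.22 (SE, limma adjusted p = 1.53e-06) in MGN. Snora78 had 13.2, 12.2 and 7.23 in MGWT, 1755, 1524, 1627 and 1830.1 in MGN and 2408, 2896, 5377 and 1720 in MGNP, with 7.18 ± 0.22 (SE, limma adjusted p = 4.41e-07) and 7.94 ± 0.40 (SE, limma adjusted p = 4.16e-05) on the log2 scale. Snora78 reached the count minimum in MGN and MGNP but not in every MGWT library, so it entered through the MMTV-neu glands. It lies within Snhg9 and opposite the ribosomal protein gene Rps2, so reads of the other strand could count toward it. Not every member shared this: Snora41, within Eef1b2, had 50.7, 35.1 and 41.3 in MGWT and 39.5, 24.1, 37.6 and 43.3 in MGN, which overlapped.

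Of 18 scaRNAs tested in MGN, 12 were higher and 1 was lower. Scarna13, within Snhg10, had 23.03, 26.4 and 23.3 in MGWT, 1416, 771, 1021 and 1096 in MGN and 1041, 868, 1294 and 1096 in MGNP. The groups were far apart, with 5.39 ± 0.22 (SE, limma adjusted p = 1.41e-06) in MGN and 5.40 ± 0.20 (SE, limma adjusted p = 1.40e-05) in MGNP. Gm22009, within an intron of Kpna4, had 1137, 1239 and 1132 in MGWT and 5183, 3657, 3679 and 4117 in MGN, a log2 difference of 1.82 ± 0.14 (SE, limma adjusted p = 2.52e-05). Gm25395 and Scarna6, both inside Atg16l1, rose by 2.81 and 2.84 (adjusted p = 3.80e-04 and 1.90e-04). Gm22767 and, in MGNP, Gm25492 gave 4.02 and 4.45 (adjusted p = 1.05e-04 and 2.72e-04). The longest member, Scarna2, had 2396, 3585 and 3193 in MGWT and 2859, 2008, 2801 and 2961 in MGN, and these ranges overlapped. The member that fell was Gm23119, with 309, 370 and 336 in MGWT and 140.1, 51.7, 117 and 66.9 in MGN, with a log2 difference of -1.94 ± 0.34 (SE, limma adjusted p = 0.00168).

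Among members without a class name, 37 of 116 tested were higher and 34 lower in MGN. Among those with the ACA tail, 29 of 61 were higher and 13 lower, and among those with both C/D letters 3 of 22 were higher and 11 lower. Gm25835, within an intron of the translation initiation factor gene Eif4a1, had 101, 190.8 and 160.2 in MGWT, 13291, 5706, 9635 and 8905 in MGN and 12520.2, 11425, 20493 and 6559 in MGNP. No gland of the MMTV-neu mice overlapped MGWT, and the log2 difference was 5.94 ± 0.30 (SE, limma adjusted p = 3.52e-06) and 6.33 ± 0.39 (SE, limma adjusted p = 7.84e-05). Gm25394, within Iars, had 3.84, 2.93 and 2.07 in MGWT and 443, 243, 353 and 539 in MGN, with a log2 difference of 6.61 ± 0.33 (SE, limma adjusted p = 3.01e-06), and Gm24616 rose by 6.10 (adjusted p = 5.62e-06). Gm25394 entered the test through MGN alone, and the size of its fitted difference depends on the pseudocount. In the other direction, Gm24729, within the neuronal microtubule gene Map2, had 36.7, 31.2 and 31.5 in MGWT and 0, 0, 4.70 and 1.03 in MGN, where 2 libraries were at 0, and its fitted log2 difference of -4.21 depends on the pseudocount (adjusted p = 6.84e-04). Gm22784 had 23.9, 31.7 and 39.8 in MGWT and 0, 3.45, 1.88 and 0 in MGN (adjusted p = 6.48e-04). Both entered the test through MGWT alone. Gm26287, within Nop58 beside Snord70, had 38.8, 30.8 and 38.8 in MGWT and 3.82, 0, 4.33 and 6.46 in MGNP (log2 difference -3.31, adjusted p = 0.00702). It too entered the test through MGWT alone, and the size of its fitted difference depends on the pseudocount. With the muscle covariate Gm26287 was no longer called (-1.73, adjusted p = 0.477).

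Direction differed with length in the comparison with MGWT. Of the 110 members that reached the count minimum in both MGN and MGWT, 40 were under 100 bases, with 4 higher and 20 lower (median log2 difference -0.96), and 70 were longer, with 46 higher and 3 lower (median 2.15). Among the box C/D members of this kind, 2 of 16 short ones were higher and 7 lower, and 8 of 8 long ones were higher. Counts over all tested members include those that entered through 1 group. Of 64 members under 100 bases, 7 were higher and 35 lower in MGN, with a median log2 difference of -1.21. Of 127 members of 100 bases or more, 70 were higher and 14 lower, with a median of 1.37. The median over all genes tested was 0.02. Within box C/D alone, 5 of 30 short members were higher and 14 lower (median -1.03), and 9 of 9 long members were higher (median 4.58). MGNP gave 6 higher and 32 lower of 64 short members, and 71 higher and 13 lower among the long ones. Other genes under 100 bases were called higher in 16 and lower in 35 of 111 cases in MGN. In the next length class, which began at 100 bases and was 25 bases wide, other genes were also mostly lower, 48 of 86 with 13 higher, whereas members of that class were higher in 8 and lower in 3 of 17 cases. The reads were pairs of 75 bases and the depth differed between these groups, and the part of either in this split was not tested.

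**Figure D2:**
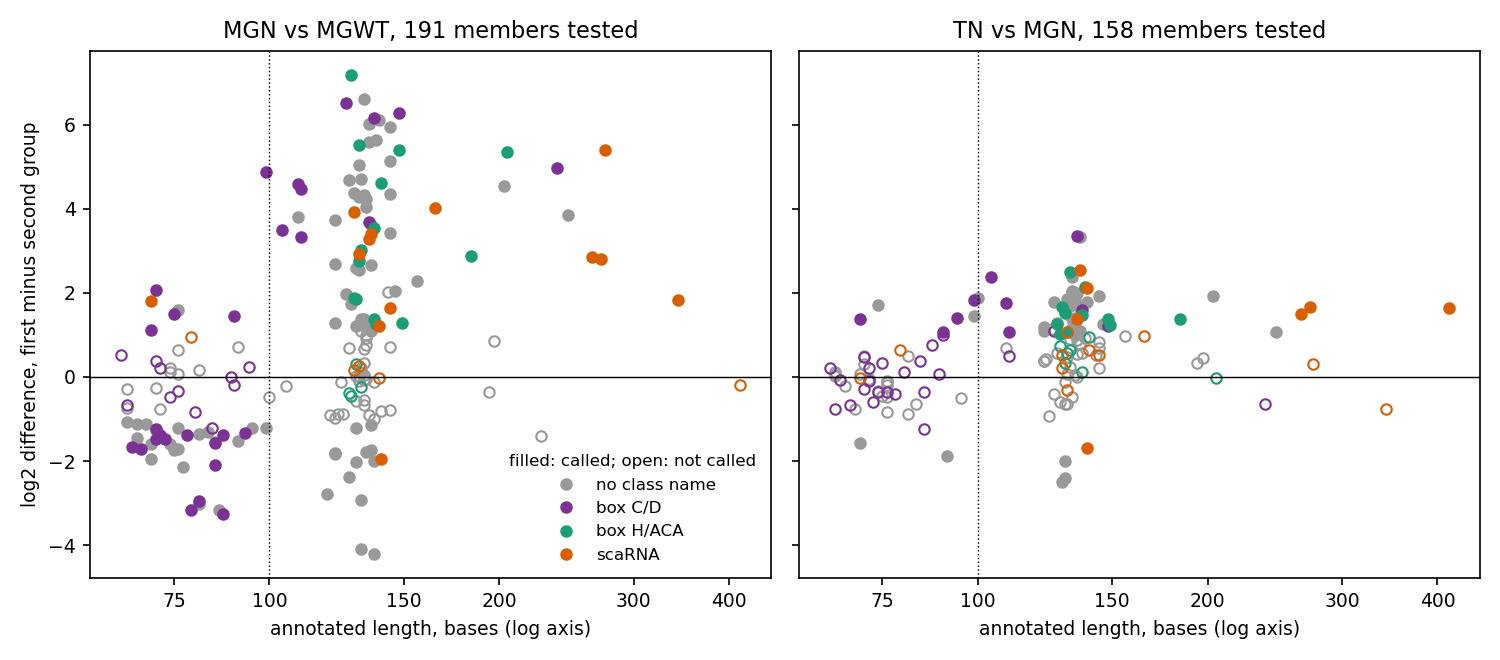
Log2 difference of each tested member (y axis) against its annotated length in bases (log x axis) for MGN minus MGWT and TN minus MGN, coloured by class, filled where called. In the left panel most points left of the dotted line at 100 bases are below 0 and most to its right above 0, and in the right panel the short members lie around 0 (median -0.07) while the long ones have a median of 1.06.

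The members inside Snhg1, a noncoding host gene of several box C/D snoRNAs, show this split within 1 locus. Snord22, of 126 bases, rose from a mean of 289.6 in MGWT to 28714 in MGN. The 7 other members there are 65 to 76 bases long and were all highest in MGWT by group mean. Gm25894 had 116, 87.9 and 99.7 in MGWT and 39.5, 26.4, 30.1 and 24.7 in MGN, and its log2 difference was -1.73 ± 0.25 (SE, limma adjusted p = 6.12e-04). Gm24452 had 79.3, 60.04 and 78.02 and 48.4, 36.8, 44.1 and 39.1, a log2 difference of -0.77 ± 0.23 (SE, limma adjusted p = 0.0194), which did not reach 2-fold. All 8 overlap annotated exons of Snhg1, so their reads may belong to the host transcript. Snhg1 itself had no row in the deposited table and could not be set beside them.

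**Figure D3:**
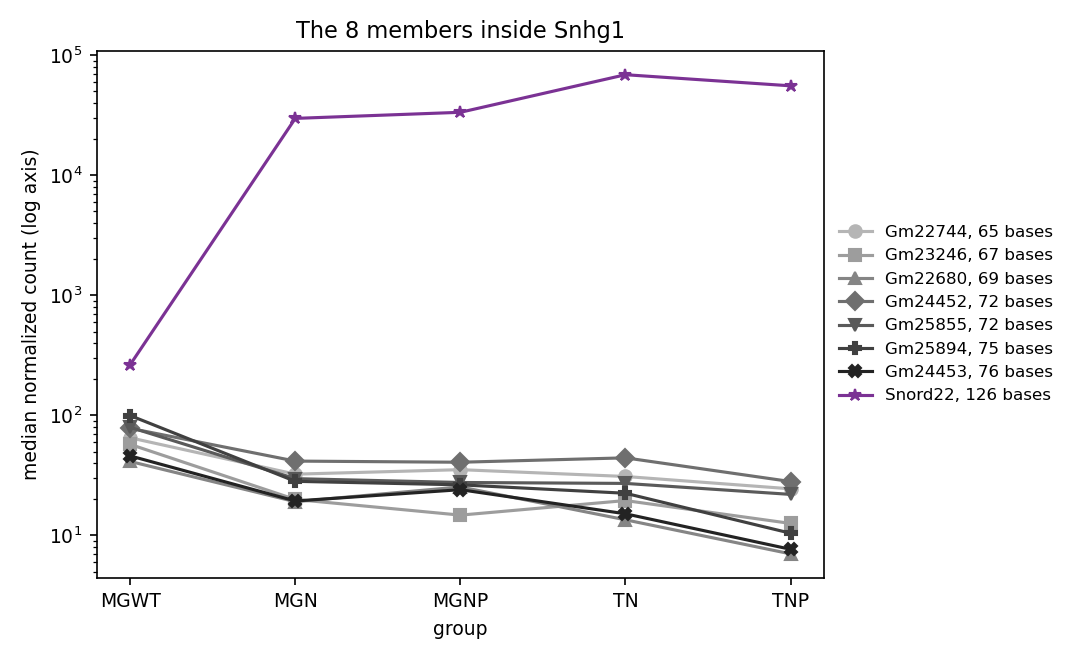
Median normalized count (log axis) in MGWT, MGN, MGNP, TN and TNP of the 8 members inside Snhg1, one line each. Snord22 (126 bases) lies far above its MGWT level in the other groups, while the 7 members of 65 to 76 bases run below it and are highest in MGWT.

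Tumors were then compared with glands of the same p53 status in fibroblasts, where library depth was alike. All TN libraries carried Fsp-Cre, while MGN replicates 2 to 4 carried the p53wm-R172H allele without Cre. Tissue and these alleles could therefore not be fully told apart in TN against MGN. In TN against MGN, 59 of 158 members tested were higher and 6 lower, against 12.8% and 22.3% of all 17950 genes. In TNP against MGNP, 65 of 153 were higher and 8 lower, against 14.7% and 24.0% of all 17880 genes. With the skeletal muscle score as a covariate these counts were 40 and 2. That score ran from 3.582 to 8.2 in TNP and from 8.795 to 16.56 in MGNP, without overlap, so it and the group cannot be told apart. The median log2 difference of members was 0.57 and 0.75, and that of all genes -0.05 and -0.07. Of the members that reached the count minimum in both groups, 54 of 116 were higher and 0 lower in the first comparison, and 60 of 109 were higher and 1 lower in the second. The groups did not overlap for 68 and 64 members (43.0% and 41.8%), below the 49.2% and 52.6% of all genes tested. The comparisons have no library in common. Of 147 members tested in both, 52 were higher in both, which was 88.1% of those higher in TN and 80.0% of those higher in TNP, and 131 had the same sign. Small nuclear RNA genes, which are no members, were higher in 30 and lower in 9 of 68 cases in TN (median 1.08). Luminal epithelial markers took 0.355 to 0.683% of TN reads and adipocyte markers 0.0016 to 0.0382%, against 0.0696 to 0.138% and 1.5 to 2.19% in MGN, and the part of cell composition in the member differences was not tested.

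Among box C/D members, 10 of 33 were higher in TN and 10 of 30 in TNP, with 0 and 1 lower. The largest rise was that of Snord118, which has no host. Snord118 had 4316, 7658, 3856 and 8927 in TN against 678, 369, 729 and 564 in MGN, and 4227, 4272, 4905 and 10926 in TNP against 709.6, 595, 659.6 and 493 in MGNP. Every tumor lay above every gland, with log2 differences of 3.36 ± 0.32 (SE, limma adjusted p = 1.39e-04) and 3.19 ± 0.30 (SE, limma adjusted p = 6.95e-05). Snord13 had 1669, 2581, 1625 and 2738 in TN and 1251, 2421, 1952 and 1922 in TNP, also above all glands (MGNP 499, 482, 693 and 324). The log2 differences were 2.36 ± 0.35 (SE, limma adjusted p = 8.25e-04) and 1.93 ± 0.27 (SE, limma adjusted p = 4.75e-04). Snord16a had 2335, 1060, 1854 and 3122 in TN, and 2191, 2559, 2776 and 5019 in TNP against 749.7, 849, 974 and 381 in MGNP. Its tumor libraries were the higher ones in both cases, by 1.84 ± 0.42 (SE, limma adjusted p = 0.00656) and 2.09 ± 0.34 (SE, limma adjusted p = 0.00113). Gm22486 had 17893, 8991, 13136 and 13598 in TN and 8994, 18769, 20343 and 33190.3 in TNP, with log2 differences of 1.60 ± 0.29 (SE, limma adjusted p = 0.00232) and 1.91 ± 0.46 (SE, limma adjusted p = 0.00721).

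The most abundant box C/D members did not all follow. Snord22 had 71111, 66698, 24800.1 and 84776 in TN and 55481, 33077, 55867 and 121617 in TNP, which overlapped the glands, and its log2 differences were 1.10 ± 0.48 (SE, limma adjusted p = 0.0845) and 0.99 ± 0.57 (SE, limma adjusted p = 0.165). Snord17 had 15572, 16303, 16969.7 and 16709 in TN, all below 3 of the 4 MGN libraries, and gave -0.64 ± 0.27 (SE, limma adjusted p = 0.0767). In TNP it had 12233, 22794, 28892 and 40231, with 0.03 ± 0.39 (SE, limma adjusted p = 0.951). Snord15a had 12166, 14692, 8643 and 8625 in TN and 6123, 13125, 12779.5 and 19128 in TNP, with 1.20 ± 0.31 (SE, limma adjusted p = 0.0112) and 1.05 ± 0.36 (SE, limma adjusted p = 0.0335). It rose in both comparisons, although TNP and MGNP overlapped. Snord70 had 4.54, 8.43, 3.03 and 12.8 in TN and 3.36, 1.22, 6.49 and 8.74 in TNP, and these values overlapped those of the MMTV-neu glands.

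**Figure D4:**
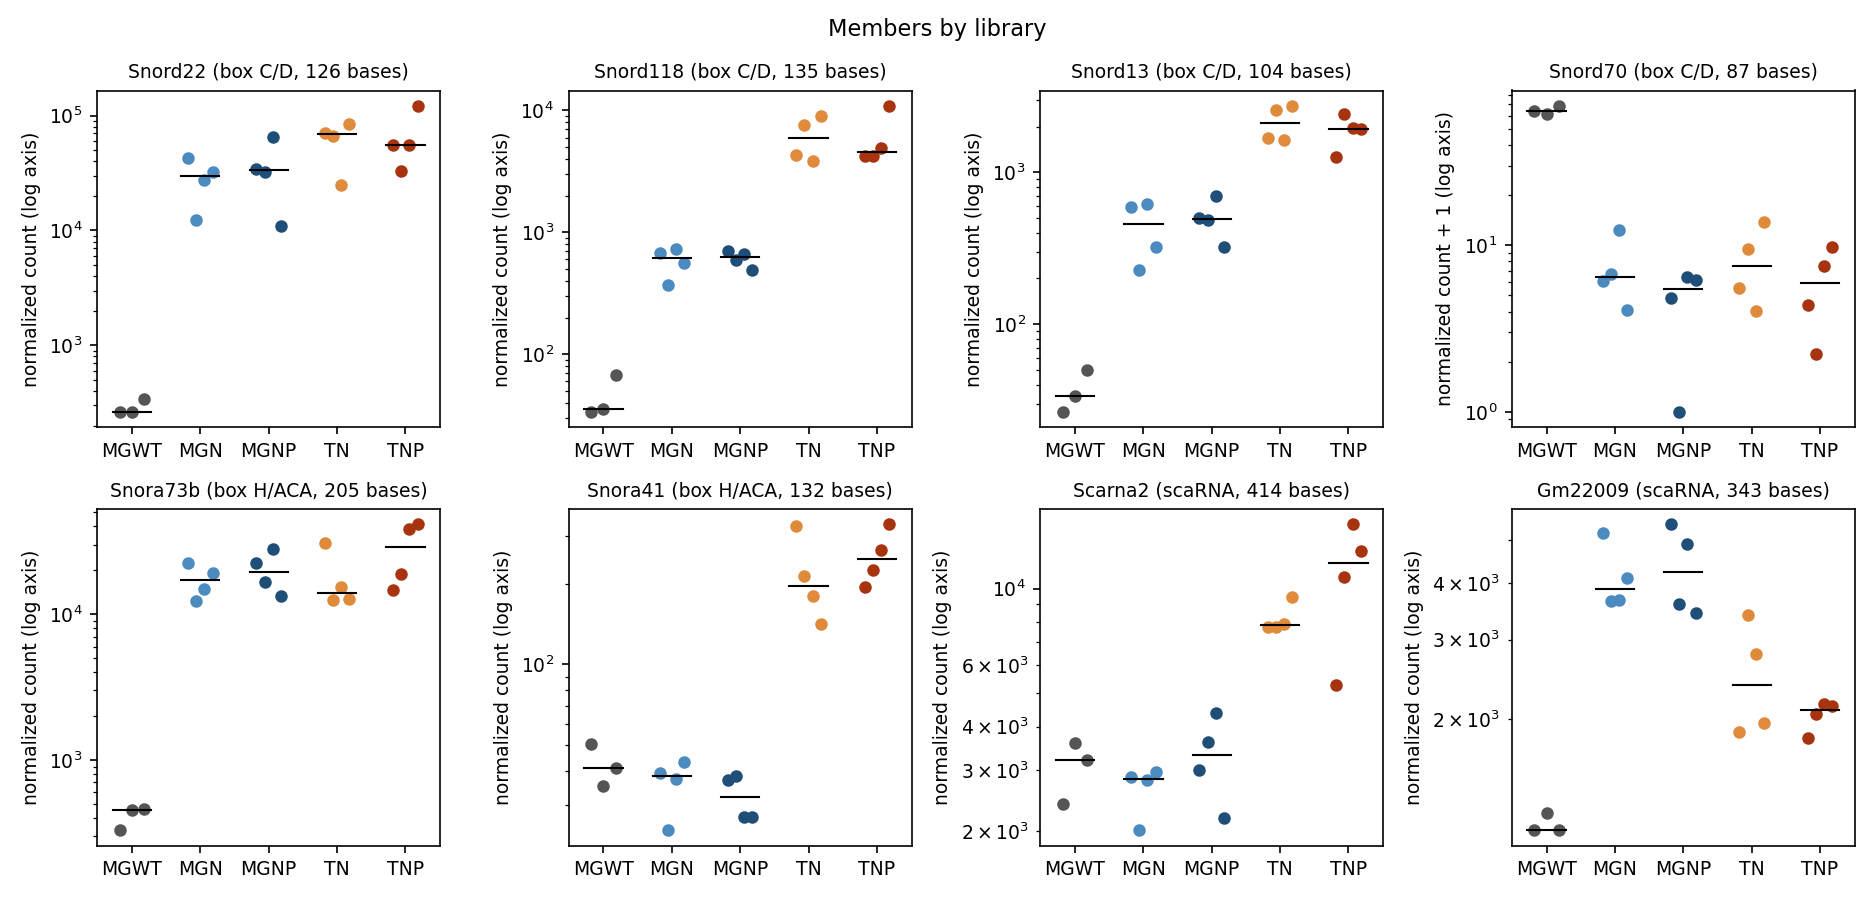
Normalized count per library (log axes, plus 1 for Snord70) of 8 members in MGWT, MGN, MGNP, TN and TNP, with a point for each library and a line at the group median. Snord118, Snord13 and Snora41 are above all glands in all 8 tumors, Snora73b overlaps among the 4 groups of MMTV-neu mice, Snord70 is highest in MGWT, and Gm22009 is highest in MGN and MGNP.

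Box H/ACA members had the largest share of calls among the classes in tumors, with 11 of 18 higher in TN, 12 of 18 in TNP and 0 lower. All of them are at least 127 bases long. At like length the share was not particular to them, as box C/D members of 100 bases or more were higher in 6 of 9 cases in TN and 7 of 9 in TNP. Snora41 had 326, 213, 179.8 and 141 in TN against 39.5, 24.1, 37.6 and 43.3 in MGN, and 194, 224, 268 and 332 in TNP against 37.2, 38.5, 27.1 and 27.1 in MGNP. All tumors exceeded all glands, MGWT included, and the log2 differences were 2.50 ± 0.33 (SE, limma adjusted p = 4.76e-04) and 2.92 ± 0.26 (SE, limma adjusted p = 5.59e-05). Snora47, within Zbed3, had 361, 141, 240.3 and 357 in TN against 58.6, 49.4, 59.2 and 66.9 in MGN, and 270.2, 388, 414 and 543 in TNP against 43.9, 75.7, 58.5 and 46.5 in MGNP. Its groups did not overlap either, with 2.13 ± 0.33 (SE, limma adjusted p = 0.00104) and 2.82 ± 0.28 (SE, limma adjusted p = 9.14e-05). Snora78 had 4457, 2688, 3348 and 3298 in TN and 2857, 4751, 7389 and 7038 in TNP, with 1.01 ± 0.16 (SE, limma adjusted p = 0.00126) in TN, and 0.86 ± 0.40 (SE, limma adjusted p = 0.0953) in TNP, which was not called. Snora73b, the most abundant of the class, was not called. It had 30584, 12479, 15314 and 12795 in TN and 14632, 18817, 38606 and 41412 in TNP, with log2 differences of -0.02 ± 0.32 (SE, limma adjusted p = 0.956) and 0.42 ± 0.39 (SE, limma adjusted p = 0.384). TN replicate 1 was above the highest MGN library, and the other TN libraries were within the MGN range.

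For scaRNAs, 6 of 18 were higher and 1 lower in TN, and 8 of 17 were higher and 1 lower in TNP. Scarna2, a scaRNA with no annotated host here, had 7770.1, 7741, 7923 and 9424 in TN and 5277, 10829, 15321 and 12843 in TNP. Each TN library was above each MGN library, and each TNP library above each MGNP library (2995, 3613, 4376 and 2176), with log2 differences of 1.64 ± 0.16 (SE, limma adjusted p = 1.36e-04) and 1.69 ± 0.34 (SE, limma adjusted p = 0.00341). Gm23751, within the chromatin remodeller gene Chd4, had 416, 186, 284 and 355 in TN against 68.8, 32.2, 51.7 and 55.6 in MGN, and 323, 404, 661 and 910.2 in TNP against 52.5, 88.5, 109 and 54.2 in MGNP. It gave 2.54 ± 0.33 (SE, limma adjusted p = 4.92e-04) and 2.85 ± 0.39 (SE, limma adjusted p = 4.09e-04). Gm24644, within Fbxo3, gave 2.12 and 2.17 (adjusted p = 0.00107 and 3.63e-04), and Gm25395 1.67 and 1.70 (adjusted p = 0.00343 and 0.00307). Gm22009 went the other way, with 1871, 3404, 2793 and 1961 in TN and 1814, 2049, 2159 and 2139 in TNP against 5414, 3596, 4903 and 3437 in MGNP. The TNP libraries were all below MGNP, at -1.06 ± 0.17 (SE, limma adjusted p = 9.65e-04), but above MGWT. The TN value of -0.76 ± 0.22 (SE, limma adjusted p = 0.0185) did not reach 2-fold. The TNP difference was also below 2-fold without MGNP replicate 1 (-0.95) or replicate 3 (-0.996). Gm26215, in Jazf1, was called lower in TN at -1.70 ± 0.56 (SE, limma adjusted p = 0.033), a call that was lost in 10 of the alternative settings.

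Members without a class name were higher in 32 of 89 cases and lower in 5 in TN, and higher in 35 of 88 and lower in 6 in TNP. Those with the ACA tail accounted for 25 of 52 higher in TN and 27 of 51 in TNP, and those with both C/D letters for 2 of 19 and 2 of 18. Gm22806, within the cell cycle gene Cks2, had 36.4, 47.4, 26.3 and 58.4 in TN against 3.82, 1.15, 2.82 and 6.18 in MGN, and 53.8, 35.4, 62.3 and 59.9 in TNP against 8.58, 4.28, 1.08 and 1.29 in MGNP. Counts in these glands were low and all tumors were higher, by 3.33 ± 0.45 (SE, limma adjusted p = 5.51e-04) and 3.74 ± 0.52 (SE, limma adjusted p = 4.94e-04). Gm22806 entered both tests through the tumors alone. Gm25835 had 35123, 39873, 25072 and 37582 in TN and 19655, 40808, 47339.7 and 86216 in TNP, with 1.92 ± 0.27 (SE, limma adjusted p = 6.88e-04) and 1.85 ± 0.48 (SE, limma adjusted p = 0.0101), although TNP and MGNP overlapped by 1 library. Gm25989, within Qtrt2, gave 2.38 in TN (adjusted p = 2.62e-04) and Gm24455, within Taf1d, 2.62 in TNP (adjusted p = 2.69e-04). Gm25107, within Lrch2, fell in TN, with 30.7, 12.6, 34.3 and 4.67 against 91.7, 81.6, 87.3 and 133 in MGN, with a log2 difference of -2.51 ± 0.57 (SE, limma adjusted p = 0.00658). In TNP it had 17.9, 12.2, 9.09 and 146, where replicate 4 stood far above the rest, and it was not called. Gm24992 in TN and Gm26132 and Gm23908 in TNP were the other leading falls, at -2.41, -2.31 and -1.99 (adjusted p = 0.00967, 0.0208 and 0.0238). All of them entered through the glands alone. Gm26132 was no longer called with the muscle covariate (-0.51, adjusted p = 0.735) or without MGNP replicate 2 (-2.04, adjusted p = 0.0556). Gm23908 was no longer called with that covariate (adjusted p = 0.0777), without MGNP replicate 1 (adjusted p = 0.0545) or without TNP replicate 3 (adjusted p = 0.063).

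In tumors the calls again fell mostly on the long members. In TN, 6 of 51 members under 100 bases were higher and 2 lower, with a median log2 difference of -0.07, and 53 of 107 longer members were higher and 4 lower, with a median of 1.06. In TNP the counts were 5 higher and 3 lower of 46 short members, and 60 higher and 5 lower of 107 long ones (median 1.19). The long box C/D members were higher in 6 of 9 cases in TN and 7 of 9 in TNP. The short members took 0.0156 to 0.0247% of TN reads, against 0.00937 to 0.0116% in MGWT and 0.00806 to 0.0137% in MGN. The long ones took 0.656 to 1.04% in TN, 0.0389 to 0.0465% in MGWT and 0.307 to 0.693% in MGN.

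Most snoRNAs share a primary transcript with their host, so member and host were set side by side. A host on the same strand was annotated for 200 of the 209 members, of which 162 lie in introns and 38 overlap a host exon, and the reads of these 38 may belong to the host transcript. The 200 lie in 154 hosts, 144 of them protein-coding, and 27 hosts hold more than 1 member. In TN against MGN, 94 of 140 members with a tested host had the sign of the host (67.1%), and in TNP against MGNP 88 of 136 (64.7%). Pearson's r over hosts was 0.504 (Spearman 0.323, 109 hosts) and 0.398 (Spearman 0.288, 110 hosts), as a description, since the hosts share libraries. In MGN against MGWT the same sign was found for 103 of 172 (59.9%), with r = 0.213 over 136 hosts. Of 53 members higher in TN with a tested host, the host was called higher in 9 and not called in 44. Of 69 members higher in MGN against MGWT, the host was called higher in 5, not called in 57 and lower in 7.

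**Figure D5:**
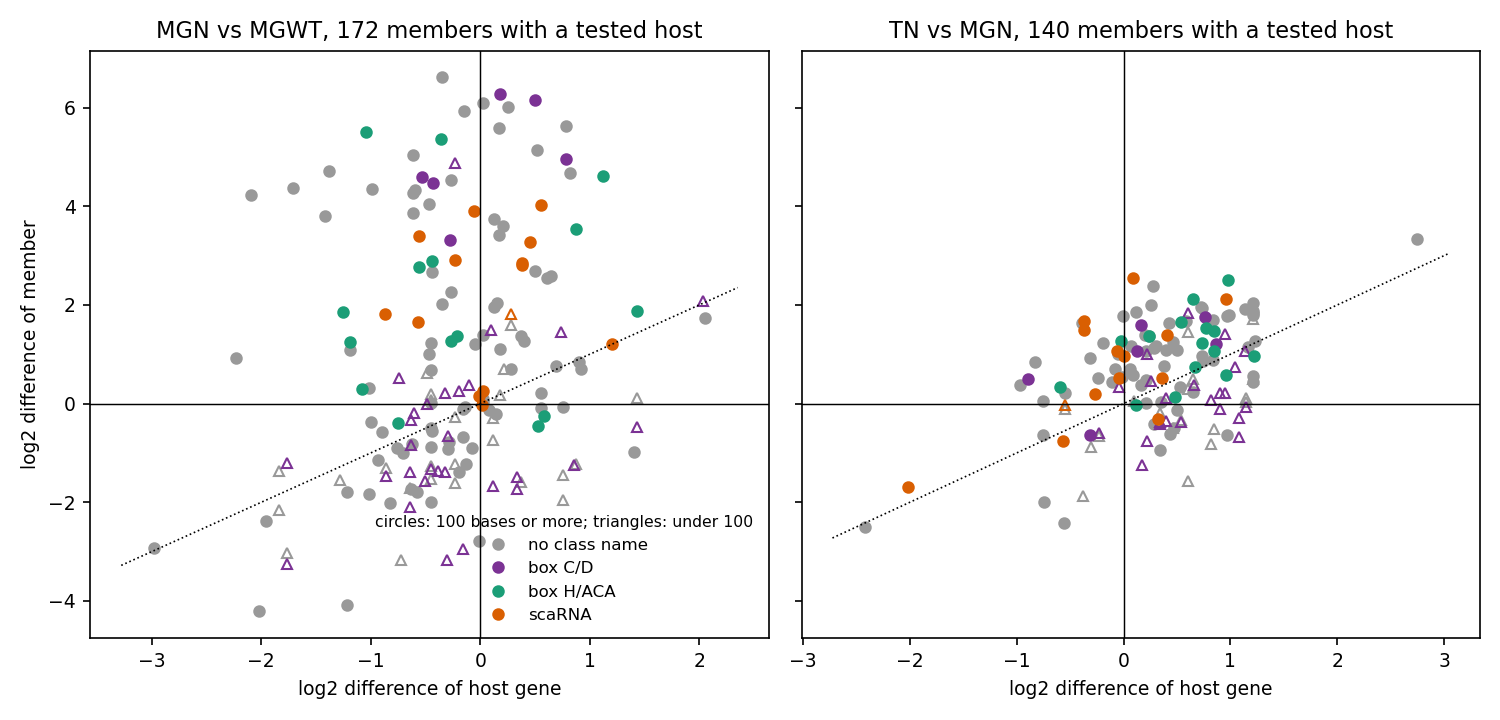
Log2 difference of each member (y axis) against that of its host gene (x axis), coloured by class, with circles for members of 100 bases or more, triangles for shorter ones, and a dotted line where both are equal. Each panel is titled with its comparison and the number of members with a tested host, and more members share the sign of their host in TN against MGN (67.1%) than in MGN against MGWT (59.9%).

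Single hosts show the range. Eif4a1 itself rose in tumors by 1.14 in TN (limma adjusted p = 0.000745, exact permutation p = 0.029) and 1.48 in TNP (adjusted p = 0.00011, exact permutation p = 0.029), beside Gm25835 at 1.92 and 1.85. The value 0.029 is the smallest p that groups of this size allow. Against MGWT, Eif4a1 differed by -0.15 in MGN (adjusted p = 0.473) while Gm25835 differed by 5.94. Cks2 rose by 2.75 and 2.82 (adjusted p = 0.000929 and 0.00898), beside Gm22806 at 3.33 and 3.74. Eef1b2 rose by 0.98 and 0.99 (adjusted p = 0.00288 and 0.00205), short of 2-fold, beside Snora41 at 2.50 and 2.92. Chd4 gave 0.09 and 0.31 (adjusted p = 0.564 and 0.0914), beside Gm23751 at 2.54 and 2.85. Lrch2 fell by 2.42 on the log2 scale in TN (adjusted p = 0.00892), beside Gm25107 at -2.51. Rcc1, host of Snora73b, gave 0.11 and 0.06 (adjusted p = 0.679 and 0.891). Kpna4 fell together with Gm22009 in TNP, by 1.05 on the log2 scale (adjusted p = 0.00504, exact permutation p = 0.029), while in MGN against MGWT it gave -0.87 and Gm22009 1.82.

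Members of 1 host were also set side by side. Taf1d, a gene for a subunit of the RNA polymerase I selectivity factor, rose by 1.21 in TN and 1.47 in TNP (adjusted p = 0.000812 and 0.000154), and 5 of its 8 members (Gm23455, Gm24357, Gm22620, Gm24455 and Gm22579) rose in both. All 8 overlap annotated exons of Taf1d, so their reads may belong to the host transcript. Gm23455 had 1539, 1377, 1305 and 1826 in TN against 456, 193, 867 and 355 in MGN, and 1606, 2207, 3311 and 3231 in TNP against 490.2, 757, 508 and 430 in MGNP. The differences were 1.88 ± 0.40 (SE, limma adjusted p = 0.0044) and 2.22 ± 0.27 (SE, limma adjusted p = 2.36e-04). The other 3, Gm24299, Gm25791 and Gm25500, were not called. In Rpl4, whose own log2 differences were 0.60 and 0.63 (adjusted p = 0.0459 and 0.011), Snord16a and Gm23136 rose in both comparisons (1.45 and 1.53 for Gm23136). Gm22571 had 9.09, 2.11, 2.02 and 8.17 in TN against 17.8, 12.6, 15.96 and 14.4 in MGN, so that it entered the test through MGN alone.

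The proteins that snoRNAs assemble with were counted from lists of their own. Of the 4 box C/D core protein genes, 1 was higher in TN and 0 in TNP. That gene was Fbl, the methyltransferase fibrillarin, at 1.005 in TN (adjusted p = 0.00431, exact permutation p = 0.029) and 0.78 in TNP (adjusted p = 0.00991). None of the 4 box H/ACA core protein genes was called in either tumor comparison, and Dkc1, the pseudouridine synthase, gave 0.14 and 0.33 (adjusted p = 0.457 and 0.0454). Of 19 assembly and Cajal body factor genes 1 was higher in TN and 0 in TNP, and of 7 trimming and decay genes 0 were called in either. Among snoRNA host genes, 7 of 42 were higher and 2 lower in TN, and 5 of 43 were higher and 3 lower in TNP. In MGN against MGWT, Nop58, a core protein gene and host of Snord70, had a log2 difference of -1.76 (adjusted p = 4.51e-05) and was the 1 gene called among the 4 box C/D core genes. Of the 4 box H/ACA core genes 1 was higher and 1 lower.

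The last question was whether mutant p53 in fibroblasts changed these RNAs, in glands, in tumors and in the change from gland to tumor. Most MGN libraries also lacked Fsp-Cre, which all MGNP libraries carried. No member was called in MGNP against MGN (165 tested), where 0.0% of all genes were called in either direction by limma, 10.5% had an unadjusted p under 0.05, 0.0% were called by edgeR and 2.8% by DESeq2. Of the members, 6 had an unadjusted p under 0.05, and 0 were called by edgeR or DESeq2. The lowest adjusted p among them was 0.331, for Gm25788. Snora78 gave 0.75 ± 0.31 (SE, limma adjusted p = 0.439), with the libraries of the groups overlapping. In TNP against TN, 0 of 148 members were called, where 0.0361% of all genes were called higher and 0.00601% lower, 7.27% had an unadjusted p under 0.05, and edgeR and DESeq2 called 0.0% and 0.511%. Of the members, 16 had an unadjusted p under 0.05, the median log2 difference over all 148 was 0.30, and edgeR and DESeq2 called 0. All 18 box H/ACA members had a positive value (median 0.53), while 0 had an unadjusted p under 0.05. These 18 values come from the same libraries and are not independent. The box H/ACA share of reads, most of it Snora73b, was 0.2266 and 0.2559% in TNP replicates 3 and 4. In TNP replicates 1 and 2 it was 0.1059 and 0.1355%, within the TN range of 0.08668 to 0.1856%. The lowest adjusted p among the 148 members was 0.669, shared by Scarna8 (1.13) and 4 members inside Taf1d, of which Gm23455 gave 0.73. The groups did not overlap for 3 members in the glands and 1 in the tumors (1.82% and 0.676%), against 6.21% and 4.21% of all genes. In the test of the difference between the 2 tumor-gland differences, 0.0% of all genes were called by limma and by edgeR, 1.69% by DESeq2, and 7.93% had an unadjusted p under 0.05. Of 177 members 0 were called by any of the 3 tools, and 3 had an unadjusted p under 0.05.

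The 17 listed copies of Snord116, from an imprinted cluster active in brain, included no member, and no copy exceeded 1.25 normalized counts in any library. Of 38 widely studied snoRNAs and scaRNAs looked up by name, 13 were members, 14 were listed below the rule and 11 were not found under that name. A missing name does not show that the RNA was absent. Snord25 to Snord31, which were looked up as snoRNAs of Snhg1, were among the 11, and several members inside Snhg1 carry only predicted-gene names. Across the 16 libraries of MMTV-neu mice, the members most like Scarna2 by Pearson's r of log2 counts were Gm22422 (0.965), Gm23751 (0.962) and Gm25835 (0.961). Snord22 was most like Gm26165 (0.844) and Snora73b most like Gm25117 (0.842). These libraries include both glands and tumors, so the values describe a mixture of tissues.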

How the data were processed

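The authors aligned paired reads of 75 bases to GRCm38 with TopHat2 2.1.1 and Bowtie2, and deposited 1 table of DESeq2-normalized counts (signal over genes). The counting tool, annotation and use of strand are not given in the sources used here. The labels name a total RNA kit, and the paper's methods an mRNA kit. Each value divided by the smallest step of its library gave whole reads (100% within 0.05 reads), which gave depth, shares of reads and the input of the count tools. Gene types, lengths, hosts and transcript sequences came from GENCODE vM21 (98.16% of identifiers matched, 849 unmatched), classes from names including RefSeq's, and near-identical copies from blastn 2.17.0.

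Comparisons used limma 3.58.1 (R 4.3.3; lmFit and eBayes with trend) on log2(normalized count + 1), over all genes with at least 10 normalized counts in as many libraries as the smaller group, with Benjamini-Hochberg adjustment over all of them. A call needed an adjusted p under 0.05 and at least a 2-fold difference. Fold changes on this scale understate those of low genes. Each comparison used its own groups, and the difference of tumor-gland differences used the 16 libraries of MMTV-neu mice. Single host and protein genes also had a two-sided exact permutation test. edgeR 4.0.16 (quasi-likelihood) and DESeq2 1.42.0 ran on the recovered reads as alternatives. The script was tested on simulated data. Alternatives were other filters, pseudocounts, scaling and tools, a replicate block, a muscle covariate, averaging TNP replicates 1 and 2, and leaving out each library. Correlations of deviations between libraries with the same replicate number ran from -0.28 to 0.319, so the numbers were not taken to pair libraries.

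Members named were, in each class, the 3 with the highest mean, the 2 largest rises and falls per comparison among called members without overlap, and widely studied ones. Applying the second part to members without a class name, and naming further members of Snhg1, Taf1d, Rpl4 and single others for contrast, was decided after values were seen. The members and lists were chosen with earlier results of these data known. Results for some members that met this rule are not reported here.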

Additional observations from a re-analysis of the deposited data

Results flagged for a closer look

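In groups of 4, 6 of 100 tested sets of values held a library whose gap to its nearest neighbour exceeded 0.829 of the range, and chance gives about 1 in 20. TN replicate 1 had 0.186% of its reads on box H/ACA members, where the other TN libraries had 0.0867 to 0.102%. The same library had the isolated value of Snora73b, 30584 normalized counts against 12479 to 15314. TNP replicate 4 held 10926 normalized counts of Snord118, against 4227 to 4905, and 146 of Gm25107, against 9.09 to 17.9. Scarna2 was low in MGN replicate 2, at 2008 against 2801 to 2961, and high in TN replicate 4, at 9424 against 7741 to 7923.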

How the results depend on the processing

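Low counts limit the short members, most of which lie near the filter. Requiring a mean of at least 50 normalized counts left 7 members lower in MGN against MGWT (49 as reported), 5 in MGNP against MGWT (45), 1 in TN against MGN (6) and 1 in TNP against MGNP (8). Without any filter the last 2 counts were 11 and 16. The muscle score as a covariate gave 2 lower in MGNP against MGWT, and 40 higher and 2 lower in TNP against MGNP. Its range in MGNP overlapped neither that in MGWT nor that in TNP, so the score and the group cannot be told apart. The cause was not tested. Without the leading member of each class, the median share over the 8 tumors was 0.208% for box C/D, 0.0597% for box H/ACA and 0.0581% for scaRNA members, each below the reported value by over 1.5 times. Leaving out 1 library at a time gave 75 to 81 higher and 40 to 52 lower in MGN against MGWT, 71 to 77 and 27 to 43 in MGNP against MGWT (27 without MGWT replicate 1 and 29 without MGWT replicate 3), 46 to 61 and 4 to 8 in TN against MGN, 58 to 67 and 6 to 9 in TNP against MGNP, and 0 in the comparisons between genotypes. Of the named members' values, 346 of 358 kept their call without 1 library and 395 of 405 under other settings, and none of these values changed sign.

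The replicate numbers did not pair the libraries. With the number as a replicate block, 73 members were higher and 50 lower in MGN against MGWT, 74 and 31 in MGNP against MGWT, 54 and 6 in TN against MGN, 61 and 7 in TNP against MGNP, and 0 in the other comparisons.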
